A study of Mus musculus with 2 samples.

Results

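The Dlg genes encode scaffold proteins of the membrane-associated guanylate kinase (MAGUK) type, and the Dlgap genes encode partners that bind their guanylate kinase-like domain. H3K9me2, the dimethylated lysine 9 of histone H3, was mapped at 9 of these genes, Dlg1 to Dlg5 and Dlgap1 to Dlgap4, in activated B cells. The 9 were taken by symbol from the 21774 protein-coding RefSeq genes on chromosomes 1 to 19, X and Y. The group was chosen by the number of peaks in both lists, since Dlg2 holds more than any other gene, so peak numbers and densities below are a description and support nothing by themselves. A gene window runs from 2 kb before a gene to 2 kb after it, and a peak belongs to it if it overlaps by at least 1 bp.

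The study had 2 CUT&Tag libraries, a method in which a transposase tethered to an antibody tags chromatin that carries the mark. One came from wild-type cells (WT) and the other from Jmjd1c B cell knockout cells (KO), both labelled as activated B cells of C57BL/6 mice. The comparison sets the mark in one genotype beside the other. The knockout allele, the Cre driver, the age of the mice and the activating agent are not given in the sources used here. Jmjd1c belongs to a jumonji family that includes demethylases of H3K9.

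Each genotype had 1 library, so differences between them carry no test. Intervals are 95% intervals for counting error only. The lists held 31623 WT and 32149 KO peaks from 33474010 and 34502392 tags. The peak caller used a fragment length, d, of 292 bp in WT and 189 bp in KO, which sets the smallest peak and acts on width, pileup and q. Neither library had a peak in the Jmjd1c window (0 and 0), so the lists do not check the knockout. Nor do they hold expression. The 7 B cell and 5 T cell markers looked up had no peak, and 1 of 4 myeloid and 2 of 4 neuronal markers had at least 1. Over all coding windows 9.69% (WT) and 9.90% (KO) held a peak, a share that rises with window length. The neuronal genes with peaks, Syt1 (513 kb) and Map2 (267 kb), are long. All 5 T cell markers and 5 of the 7 B cell markers are under 100 kb, so the counts do not separate cell type from length.

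Dlg1, Dlg2, Dlg3 and Dlg4 are the SAP97, PSD-93, SAP102 and PSD-95 scaffolds, which use PDZ domains to hold receptors and channels at membranes. At excitatory synapses they gather glutamate receptors and potassium channels, and the Dlgap proteins join them to the Shank scaffolds beneath. Dlg1 and the more distant Dlg5 also act in cell polarity, and Dlg1 takes part in signalling at the contact sites of lymphocytes. H3K9me2 is a mark of repressed chromatin that is laid down over broad regions.

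Sequences before the starts that RefSeq lists for Dlg2 are shown first. All 3 lie inside the gene, 615, 1586 and 1759 kb from its left end. No start is listed at that end, so a promoter there is not covered by what follows. The 250 bases before each of 3 Dlg2 starts are set beside those of Dlgap1, the member start nearest to a peak, and of Dlgap4, a peak-free member. They are from RefSeq on GRCm38.p6, the assembly behind mm10, 5′ to 3′ on the plus strand, and capitals mark each CG dinucleotide.
Dlg2 start at 91090786, chr7:91090536-91090785: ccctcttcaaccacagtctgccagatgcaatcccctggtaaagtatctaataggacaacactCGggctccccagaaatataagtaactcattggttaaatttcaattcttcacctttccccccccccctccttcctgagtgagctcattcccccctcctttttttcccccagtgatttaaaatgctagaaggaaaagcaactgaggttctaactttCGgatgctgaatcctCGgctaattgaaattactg
Dlg2 start at 92062394, chr7:92062144-92062393: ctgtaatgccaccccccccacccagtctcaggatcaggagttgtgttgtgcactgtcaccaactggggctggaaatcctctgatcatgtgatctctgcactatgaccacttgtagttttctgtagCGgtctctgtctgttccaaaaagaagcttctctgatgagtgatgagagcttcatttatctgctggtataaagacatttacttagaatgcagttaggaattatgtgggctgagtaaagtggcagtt
Dlg2 start at 92234970, chr7:92234720-92234969: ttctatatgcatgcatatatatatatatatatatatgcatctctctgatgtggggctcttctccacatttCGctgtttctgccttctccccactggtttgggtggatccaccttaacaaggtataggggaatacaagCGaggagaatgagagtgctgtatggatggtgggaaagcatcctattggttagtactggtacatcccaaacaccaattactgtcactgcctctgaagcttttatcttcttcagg
Dlgap1 start at 69969073, chr17:69968823-69969072: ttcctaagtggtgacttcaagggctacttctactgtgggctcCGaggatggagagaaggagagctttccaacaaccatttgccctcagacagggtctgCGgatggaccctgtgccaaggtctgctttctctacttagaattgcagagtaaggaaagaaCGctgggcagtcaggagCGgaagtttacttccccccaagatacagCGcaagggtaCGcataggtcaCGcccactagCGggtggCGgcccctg
Dlgap4 start at 156720965, chr2:156720715-156720964: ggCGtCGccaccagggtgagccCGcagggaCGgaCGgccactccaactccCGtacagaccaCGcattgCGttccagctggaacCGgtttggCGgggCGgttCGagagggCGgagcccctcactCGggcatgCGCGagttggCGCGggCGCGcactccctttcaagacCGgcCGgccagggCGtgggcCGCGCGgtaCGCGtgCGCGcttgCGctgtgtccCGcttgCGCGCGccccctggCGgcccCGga

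The 3 Dlg2 stretches held 3, 1 and 2 CG, the Dlgap1 stretch 9 and the Dlgap4 stretch 37, the most of any listed member start. Stretches of the other peak-free members held 9, 20, 4 and 3 (Dlg1), 7 and 19 (Dlg3), 4, 11 and 14 (Dlg4) and 2 (Dlgap3). Members without peaks thus had both few and many CG. Over all 32851 listed promoters the median was 6, and 92.1% held at least 1. Of the members, 8 had 17 listed starts in all, and Dlgap2 was not matched. None of the 17 promoters (250 bases before to 50 after the start) overlapped a peak in either library, where 1.25% of all promoters did in WT and 1.18% in KO. Across all promoters the share with a peak was 1.33% in WT and 1.24% in KO at up to 5 CG, and 1.01% and 0.981% at 16 or more. Of the 17 starts, 2 had a peak within 2 kb, and the share over all listed starts was not taken at this distance. At the Dlg2 start at 92062394 the nearest peak began 1.25 kb downstream in WT and 1.12 kb in KO, and at the Dlgap1 start at 69969073 it began 0.741 kb and 1.10 kb downstream.

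Dlg2, which encodes PSD-93, carried H3K9me2 peaks along nearly its whole body and far fewer around it. The gene runs on the plus strand of chromosome 7 from 90476188 to 92449246 (1973 kb) and is the seventh longest coding window, at rank 7. Its window held 98 peaks in WT (79.6 to 119) and 95 in KO (76.9 to 116), or 49.6 and 48.1 per Mb. Cntnap2, a neurexin relative and the gene with the next highest number, held 90 and 69. In Dlg2 KO had 0.969 times the WT number (0.723 to 1.299), an interval that includes 1 without showing that the numbers are equal.

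**Figure D1:**
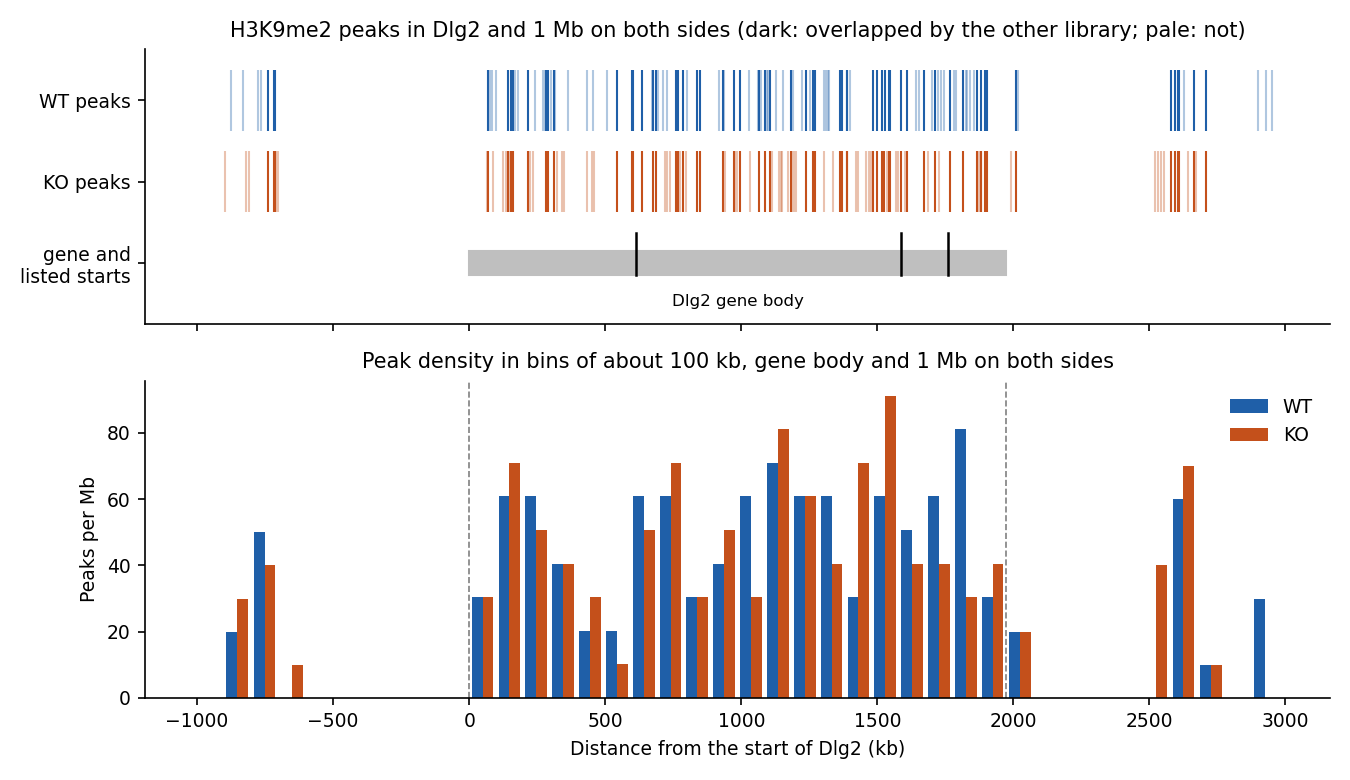
Upper panel: each tick is the midpoint of an H3K9me2 peak by distance from the start of Dlg2 (kb), in the gene and 1 Mb on both sides, dark where the other library has an overlapping peak. The grey bar is the gene and black marks are its 3 listed starts. Lower panel: peaks per Mb in 20 equal bins of the gene and in 100 kb bins outside it, 1 library per genotype. Separate peaks are spread along the gene from 69.7 kb (WT) and 64.7 kb (KO) inside its start, covering 2.90% and 2.15% of its window. In the 500 kb flanks on both sides together only 2 peaks per library appear.

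The first and last peaks inside the gene lay 64.7 to 69.7 kb from its ends. In WT the first peak began 69.7 kb after the gene's start and the last ended 68.5 kb before its end, and in KO these distances were 64.7 and 68.4 kb. Upstream, the next peak was 712 kb from the gene in WT and 701 kb in KO. Downstream it was 38.0 kb away in WT and 17.1 kb in KO, nearer to the gene's end than the last peak inside. Midpoints on either side of that end lay 1904 and 2011 kb from the gene's start in WT and 1904 and 1990 kb in KO. Spacings inside the gene reached 86.5 kb in WT and 85.2 kb in KO, so the right edge was less distinct than the left. The 500 kb on the left held 0 peaks in both libraries and the 500 kb on the right held 2 in both, whereas the gene held 49.6 and 48.1 per Mb. Tmem126b, the nearest coding gene on the left at 0.193 kb, and Ccdc90b, at 112 kb on the right, had 0 peaks.

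Set against 500 kb on both sides, the density inside Dlg2 was 24.8 times higher in WT (6.68 to 208) and 24.03 times higher in KO (6.47 to 201). Against 1 Mb on both sides, where 19 WT and 22 KO peaks lay, it was 5.22 times higher in WT (3.17 to 9.03) and 4.37 times higher in KO (2.72 to 7.30). Of these, 7 WT and 8 KO peaks lay upstream and 12 and 14 downstream. Among the 227 coding windows of at least 500 kb, the body minus 500 kb flank density of Dlg2, 47.6 per Mb in WT and 46.1 in KO, ranked 1 in both libraries. With 1 Mb flanks the rank was 6 in WT and 8 in KO. Over those 227 genes the median difference with 500 kb flanks was 1.63 per Mb in WT and 1.91 in KO, and 56.4% and 55.9% had a denser body than flanks. The body's own density entered the choice of Dlg2 through its peak number, and it makes up most of these differences. The ratios and ranks are therefore a description, and only the flank counts lay outside the choice.

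Few peak-rich genes were so isolated. Of the 95 other genes with at least 20 WT peaks, 6 had at most 2 peaks in both 500 kb flanks together, and of the 108 others in KO 5 did. The limit of 2 is the flank number of Dlg2 itself in both libraries, so these counts are a description. In each library 3 of these genes are overlapping windows of the same locus, so the genes counted are not separate places. The median over all genes with at least 20 peaks, Dlg2 included, was 18.5 flank peaks in WT and 19 in KO. Peak-free margins of at least 60 kb at both ends, a limit set after the Dlg2 values were seen, were found in 1 of the 95 and 6 of the 108.

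Inside the gene the peaks were spread over its length without a main block. In 10 equal bins of 197 kb, WT had 9, 10, 4, 12, 7, 13, 12, 9, 11 and 11 peaks from the start to the end of the gene, and KO had 10, 9, 4, 12, 8, 11, 10, 16, 8 and 7. The third bin, from 395 to 592 kb, was the sparsest in both libraries, at 4 and 4 peaks. The densest were the sixth bin in WT, at 65.9 per Mb (35.1 to 113), and the eighth in KO, at 81.1 per Mb (46.4 to 132). The eighth bin, from 1381 to 1578 kb, showed the largest gap between the libraries, 9 WT against 16 KO peaks, with a ratio of 1.78 whose interval was 0.740 to 4.56. Intervals of the other 9 bins also included 1.

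The eighth bin holds the noncoding RNA gene Gm32353, which was picked out after its values were seen and had 0 WT and 3 KO peaks. In all, RefSeq places 7 genes inside Dlg2, Gm32353 among them, all noncoding genes or pseudogenes. Apart from Gm32353, each held 0 or 1 peak per library. Exons of Dlg2 were not used here, so peaks are not divided between exons and introns.

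Cut at its listed starts, the gene gave 4 segments. The stretch before the start at 91090786, 615 kb that transcripts from the listed starts leave out, held 25 peaks in WT and 25 in KO, or 40.7 per Mb in both. The 972 kb from there to the start at 92062394 held 51 and 55 (52.5 and 56.6 per Mb). The next 173 kb held 10 and 7 (57.9 and 40.6 per Mb) and the last 214 kb, shared by all listed starts, held 12 and 8 (56.0 and 37.3 per Mb). The intervals of all 4 segments overlapped within each library. Numbers were equal before the first listed start, and in the other segments the libraries differed by 3 or 4 peaks, less than the counting error of either.

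Neighbouring Dlg2 peaks were mostly several kb apart. Successive WT midpoints were 1.39 to 86.5 kb apart, with a median of 13.1 kb (10.3 to 15.5) and quartiles of 8.27 and 28 kb. In KO they were 1.07 to 85.2 kb apart, with a median of 11.4 kb (9 to 16.9) and quartiles of 7.69 and 26.0 kb. Each median lay inside the other library's interval. Peaks closer than 5 kb were uncommon, at 10 of 97 WT and 9 of 94 KO spacings.

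**Figure D2:**
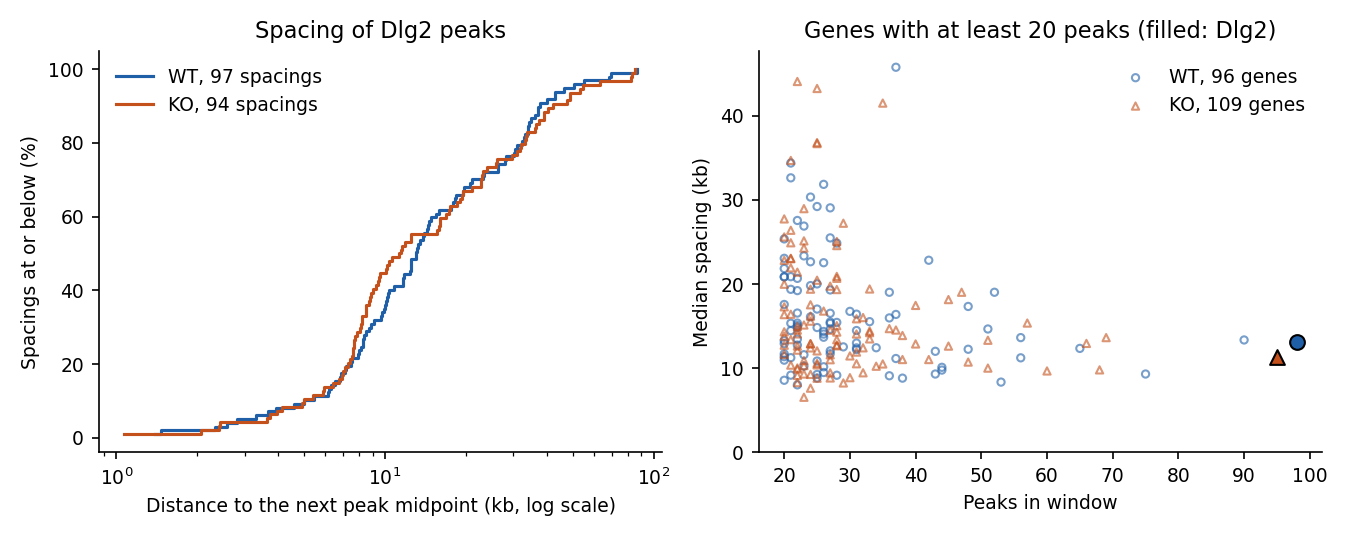
Left: share of Dlg2 spacings (%) at or below each distance between neighbouring peak midpoints (kb, log scale), for 97 WT and 94 KO spacings. Right: median spacing (kb) against the number of peaks for each gene with at least 20 peaks, circles for WT and triangles for KO, filled for Dlg2. Dlg2 has the highest peak number, while its median spacing of 13.1 and 11.4 kb lies inside the cloud of other genes.

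This spacing was not unusual for a peak-rich gene. Among genes with at least 20 peaks Dlg2 had rank 37 of 96 for the shortest median spacing in WT and rank 30 of 109 in KO. The medians of the others ran from 8.03 to 45.8 kb in WT (median 14.8) and from 6.55 to 44.1 kb in KO (median 14.1). The coefficient of variation of the spacings was 0.843 in WT and 0.929 in KO, beside a median of 0.908 and 0.882 over the other genes. Merging peaks within 5 kb left 87 WT and 84 KO groups, of which 77 and 75 were single peaks. With both libraries pooled, the largest group held 6 peaks over 11.8 kb, starting 150 kb into the gene, and the longest stretch with no peak was 69.1 kb, from 849 to 918 kb.

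About as many Dlg2 peaks were matched between the genotypes as elsewhere. In WT, 49 of 98 peaks were overlapped by a KO peak, an exact Clopper-Pearson interval of 39.7 to 60.3%, where 46.4% of all WT peaks were. In KO, 50 of 95 (52.6%, 42.1 to 63.0%) were overlapped by a WT peak, where 45.9% of all KO peaks were. Both genome-wide shares lie inside the Dlg2 intervals. Over the other genes with at least 20 peaks the pooled share was 50.2% in WT and 48.8% in KO. KO peaks covered 2.15% of the window and WT peaks 2.90%.

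Of the matched sites, 48 joined a single WT peak to a single KO peak, and their midpoints lay a median of 93 bp apart, with 9 more than 250 bp apart. Median widths there were 582 bp for WT and 454 bp for KO peaks, or 290 and 266 bp above d. The authors' −log10 q was higher in WT at 33 of these 48 sites, a value that depends on d. Unmatched peaks, 49 in WT and 45 in KO, lay a median of 8.71 and 7.11 kb from the nearest peak of the other library, against 11.0 and 11.1 kb over all unmatched peaks. Among them, 12 WT and 14 KO peaks had a neighbour within 5 kb and 4 and 5 had none within 20 kb. Of all 16945 unmatched WT peaks, 3670 had a neighbour within 5 kb and 5183 none within 20 kb, and of all 17403 unmatched KO peaks 3934 and 5438 did.

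**Figure D3:**
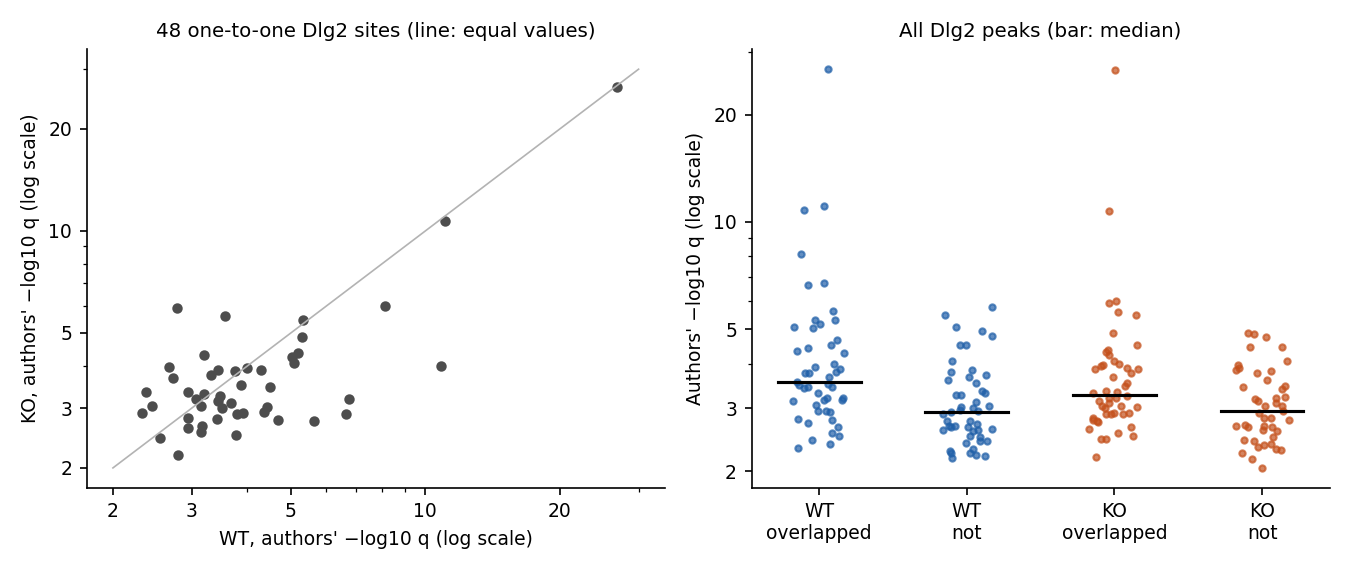
Left: the authors' −log10 q (log scales) of the 48 Dlg2 sites where a single WT and a single KO peak overlap, with the line of equal values. Right: the same quantity for all Dlg2 peaks, 49 overlapped and 49 not in WT, 50 and 45 in KO, with bars at the medians of 3.56, 2.93, 3.28 and 2.95. The most significant site is shared, at 26.8 in WT and 26.6 in KO.

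The most significant Dlg2 peak was the same site in both libraries. It lay at chr7:92147482-92148579 in WT and chr7:92147635-92148541 in KO, 1672 kb into the gene, with a −log10 q of 26.8 and 26.6 and a fold enrichment of 4.32 and 5.43, all authors' values. The next shared site, 687 kb into the gene, had 11.1 and 10.7. Another, 312 kb into the gene, had 8.14 and 5.99. At a q of 1e-05 or lower, Dlg2 kept 15 of 98 WT peaks (15.3%, against 13.0% of the WT list) and 6 of 95 KO peaks (6.32%, against 8.10% of the KO list). Of these, 12 of 15 and 6 of 6 were overlapped by a peak of the other full list, beside 3218 of 4110 WT and 1973 of 2603 KO peaks over the whole lists at this limit. At this limit Dlg2 no longer led: Cntnap2 had 17 in WT and 14 in KO, and Dlg2 had rank 2 and rank 5.

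Dlg2 peaks had q values near the middle of the lists and a high local background. Their median −log10 q was 3.24 in WT and 3.15 in KO, beside 3.27 and 3.01 over the lists. Pileup, the coverage by extended tags, was above the list's median in 73.5% of WT and 70.5% of KO peaks of the gene. Fold enrichment was above it in 31.6% and 40%. Pileup divided by fold, which approximates the local background of the caller, had a median of 12 in WT and 7.46 in KO at Dlg2, against 9.31 and 6.17 over the lists. No Dlg2 peak reached a pileup of 100, and the highest were 86.5 and 68.7.

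Among the 9 genes the long ones held the peaks. In WT, 4 of the 9 windows held a peak and in KO the same 4 did, where 9.69% of all coding windows did in WT and 9.90% in KO. The 3 longest members, Dlg2, Dlgap1 and Dlgap2, all held peaks, as did 88.1% (WT) and 87.7% (KO) of the 227 coding windows of at least 500 kb. Of the 6 shorter ones, Dlg5 alone did, beside 8.86% and 9.08% of all shorter windows. Dlg5 and Dlgap4 are windows of 100 to 200 kb, of which 22.3% (WT) and 23.1% (KO) held a peak. Peaks in the 9 windows numbered 125 in WT and 128 in KO, of which Dlg2 had 78.4% and 74.2% on 46.6% of the length.

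**Figure D4:**
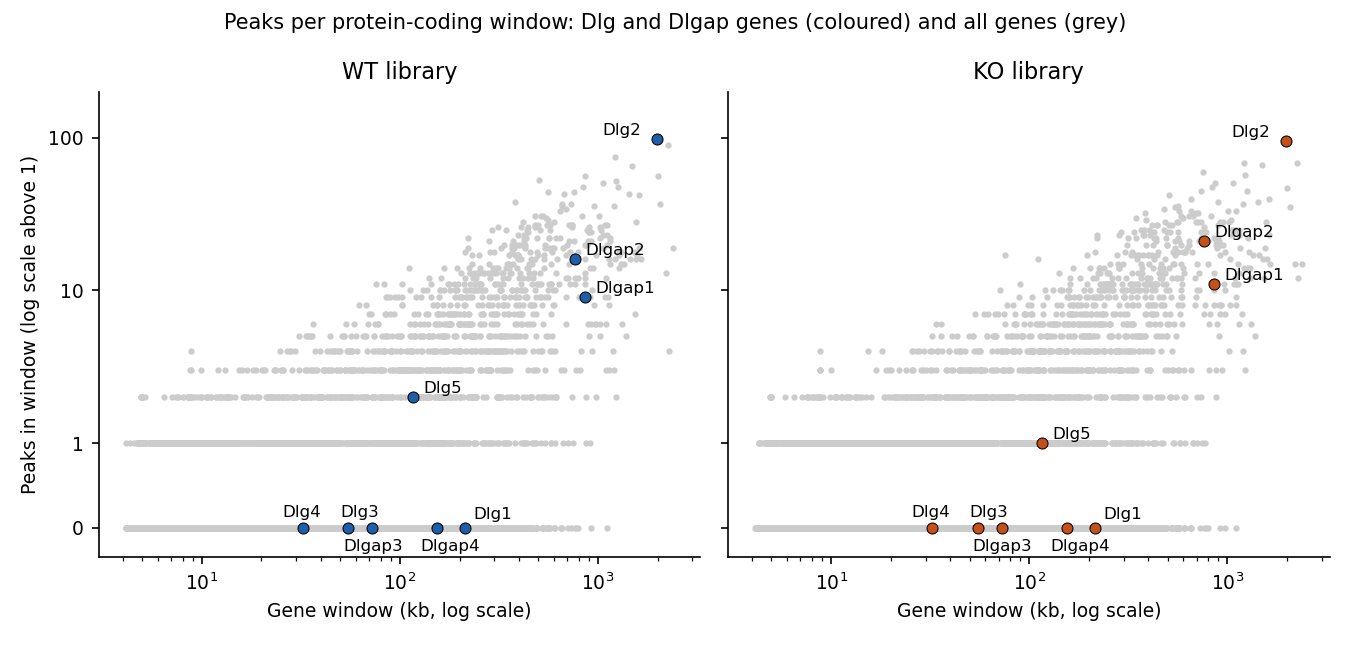
Number of H3K9me2 peaks (log scale above 1) against the length of the gene window (kb, log scale) for 21774 protein-coding genes in grey and the 9 Dlg and Dlgap genes in colour, 1 panel per library. Dlg2 stands highest, with 98 and 95 peaks, Dlgap1 and Dlgap2 hold 9 to 21, and 5 members are at 0 in both panels.

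Dlg2 stood apart from its 3 closest paralogues. Dlg2 held 98 and 95 peaks, while Dlg1 (chromosome 16 from 31663443 to 31873356, 210 kb), Dlg3 (chromosome X from 100767411 to 100818410, 51.0 kb) and Dlg4 (chromosome 11 from 70017203 to 70045535, 28.3 kb) held 0 in both libraries. In the 1 Mb on both sides, Dlg1 had 1 peak in each library, Dlg3 11 in WT and 18 in KO, and Dlg4 none. The nearest peak was 834 kb from Dlg1 in both libraries, 437 kb (WT) and 412 kb (KO) from Dlg3, and 1337 kb from Dlg4 in both. Within 1 Mb lay 32 coding genes at Dlg1, 30 at Dlg3 and 109 at Dlg4, against 20 at Dlg2.

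Dlg1 is the longest of the 3. Of the 787 coding windows of 200 to 500 kb, 52.5% held a peak in WT and 52.6% in KO, so many windows of this size had none. Its neighbours Gm536 and Meltf, the latter a melanotransferrin gene, also had 0. For Dlg3 and Dlg4 a count of 0 is the rule: of windows under 50 kb, 5.34% (WT) and 5.47% (KO) held a peak, and of those from 50 to 100 kb 9.95% and 10.4%.

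Dlg5, which encodes a scaffold of cell polarity and adhesion, had few peaks, while 23 WT and 17 KO peaks lay within 1 Mb of it. The gene lies on the minus strand of chromosome 14 from 24133953 to 24245920 (112 kb) and held 2 WT peaks and 1 KO peak. The KO peak overlapped a WT peak, with midpoints 118 bp apart, and the other WT peak was 31.7 kb from any KO peak. The nearest WT peak was 44.8 kb from its listed start and the nearest KO peak 49.6 kb. Only 4 other coding genes lay within 1 Mb, among them the potassium channel gene Kcnma1 on the left at 129 kb, with 15 WT and 13 KO peaks. E330034G19Rik, on the other side, had none.

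Dlgap1, also called GKAP, held 9 peaks in WT (4.12 to 17.1) and 11 in KO (5.49 to 19.7). It lies on the plus strand of chromosome 17 from 69969073 to 70821413 (852 kb), and its densities were 10.5 and 12.8 per Mb, ranks 137 and 119 of the 227 windows of at least 500 kb. Of the WT peaks 6 of 9 were overlapped by a KO peak, and of the KO peaks 6 of 11 by a WT peak. The peaks were bunched: 8 of 9 in WT and 7 of 11 in KO lay from 426 to 639 kb into the gene. From 1.25 kb after the start to 390 kb there was no peak midpoint in either library. The peak just after the start, at chr17:69969814-69970417 in WT and chr17:69970172-69970472 in KO, was shared. Its −log10 q was 2.23 in WT, near the limit of the list, and 2.86 in KO.

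Dlgap2, a close relative with the same role, held 16 peaks in WT (9.15 to 26.0) and 21 in KO (13.0 to 32.1), a ratio of 1.31 (0.653 to 2.69). It lies on chromosome 8 from 14095776 to 14853426 (758 kb). Its densities of 21.0 and 27.6 per Mb had ranks 82 and 64 among the 227. Of the WT peaks 8 of 16 were overlapped, and of the KO peaks 8 of 21 (38.1%, 18.1 to 61.6%). Density inside was 5.25 times that of 1 Mb on both sides in WT (2.12 to 14.2) and 5.51 times in KO (2.49 to 13.1). Peak-free margins of 78.4 and 84.5 kb in WT and 153 and 84.5 kb in KO lay at its left and right ends. Erich1 on the left and Cln8 on the right, a gene of neuronal ceroid lipofuscinosis, had 0 peaks.

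Dlgap2 also held the only member peak of a pileup of 100 or more. It was shared, 211 kb from the left end, with a pileup of 167 in WT and 138 in KO and a −log10 q of 91.4 and 87.8. A second shared peak, 198 kb from the left end, had 11.0 and 11.9. Without the peak of a pileup of 100 or more, Dlgap2 kept 15 WT and 20 KO peaks.

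**Figure D5:**
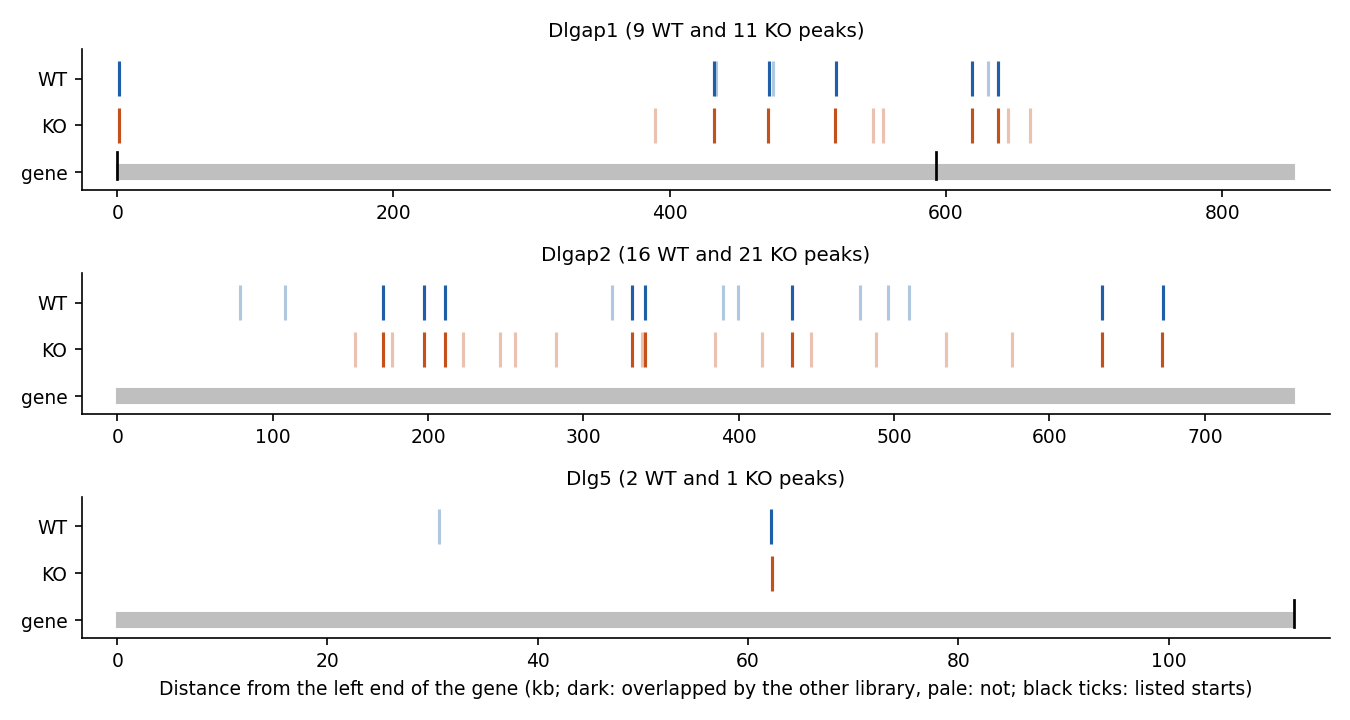
Peak midpoints by distance from the left end of the gene (kb) in Dlgap1, Dlgap2 and Dlg5, WT above KO, dark where the other library overlaps. Grey bars are the genes and black ticks their listed starts. Dlgap1 peaks gather between 390 and 661 kb apart from a shared one near the start, whereas Dlgap2 peaks run from 78.8 to 673 kb.

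Dlgap3 (chromosome 4 from 127168305 to 127237022, 68.7 kb), a striatal postsynaptic partner, and Dlgap4 (chromosome 2 from 156613633 to 156764363, 151 kb) held 0 peaks in both libraries. The nearest peak was 251 kb (WT) and 232 kb (KO) from Dlgap3 and 2178 kb from Dlgap4 in both. Dlgap4 had 45 coding genes within 1 Mb and Dlgap3 27. Their coding neighbours Tmem35b, Aar2 and Myl9 held none either. This was also so for the neighbours of Dlg3 (Gdpd2 and Tex11), Dlg4 (Acadvl and Asgr1) and Dlgap1 (Akain1 and Tgif1).

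Density puts the length of Dlg2 aside. Per Mb it stood 3.51 times above the median of windows of at least 500 kb in WT (2.85 to 4.28) and 3.46 times in KO (2.80 to 4.23), with the median taken as fixed. Its density had rank 16 of 227 in WT and rank 19 in KO. Among the 59 windows of at least 1 Mb, only Csmd3, a gene of a giant complement-domain protein, was denser in both libraries. Dmd, the dystrophin gene and the longest, held 19 and 15 peaks, and Ptprd, a receptor phosphatase gene and the next longest, 4 and 12. These 2 were named after their values were seen.

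Several other genes had peak numbers or densities like those of Dlg2. After Cntnap2, genes with the most peaks included Csmd3 (75 and 68), the MAGUK relative Magi2 (65 and 66) and the glutamate receptor gene Grm8 (56 and 51). Among the nearest to Dlg2 in mean density, 48.8 per Mb over both libraries, were Fat3 (48.6), Grm5 (49.5), Ptprm (47.7) and Fstl5, out of the 227 windows.

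Other scaffold and partner genes with peaks were mostly long. Their numbers below stand beside 9.69% (WT) and 9.90% (KO) of all coding windows with a peak. By length the shares were 5.34% and 5.47% under 50 kb and 9.95% and 10.4% at 50 to 100 kb. They were 22.3% and 23.1% at 100 to 200 kb, 52.5% and 52.6% at 200 to 500 kb, and 88.1% and 87.7% at 500 kb or more. Among 21 MAGUK relatives, 6 held a peak in each library. They were Magi2, Magi1 (22 and 18), Cacnb2 (6 and 10), Mpp7 (8 and 4), Cask (3 and 3) and Tjp1 (2 and 4). All 6 were among the 10 windows of at least 100 kb, and 0 of 11 shorter ones had a peak. Of 19 postsynaptic scaffold partners only Anks1b (20 and 33) and Lin7a (3 and 2) held peaks, and the Shank and Homer genes and Dlgap5 held none. Those 2 were among 6 windows of at least 100 kb, and the long genes Kalrn (604 kb) and Shank2 (448 kb) had no peak.

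Of 26 receptors, channels and adhesion partners 9 held a peak, 8 of 10 windows of at least 100 kb and 1 of 16 shorter ones. The NMDA receptor gene Grin2b held 15 and 15, Grin2a 2 and 8, the kainate receptor gene Grik2 20 and 10, and the neuroligin gene Nlgn1 9 and 17. The others were Adam22 (13 and 10), Adam23 (8 and 4), Lrfn2 (4 and 3), Gria1 (3 and 2) and Kcna4 (1 and 1). None of 13 genes of the polarity module, among them Scrib, Llgl1 and Pard3, held a peak in either library. Of these, 9 are under 100 kb, a length at which most coding windows have none. Pard3, at 549 kb, is in the class of at least 500 kb, where 88.1% (WT) and 87.7% (KO) held a peak. The median density was 0 per Mb in each of these 4 lists, as it was over all coding windows.

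The covered length at Dlg2 was 57.3 kb in WT and 42.5 kb in KO. The difference in d, 103 bp, moves with it: adding that amount to each KO peak, the KO share of the window was 2.64% instead of 2.15%, beside 2.90% in WT. Its part in the remaining difference was not tested.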

How the data were processed

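The data were peak lists of 2 CUT&Tag libraries for H3K9me2, 1 per genotype, whose genotypes are those of the labels. Bowtie2 2.4.2, Trim Galore 0.6.6, Picard, SAMtools 1.11, deepTools, HOMER and MACS2 are listed in the submitters' processing notes, as is mm10. The authors, per the file headers, called peaks in each library separately with MACS2 2.2.7.1 in broad mode, at a q of 0.01, with all duplicates kept, no control and 10000 bp for the local background. Fragment lengths d of 292 bp (WT) and 189 bp (KO) are in those headers. The deposited pileup is a coverage signal not scaled between libraries. Each deposited q-value, like each p-value, is on the −log10 scale, and the authors' fold enrichment is a ratio to local background, used within a list only. Kept duplicates can make narrow towers, and a wide domain raises its own background.

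Peaks were counted in gene windows from RefSeq GRCm38.p6, leaving out 348 genes of unplaced and patch scaffolds. Covered length is the union of peaks. Count intervals are exact Poisson, shares exact Clopper-Pearson, ratios exact binomial-based and medians order-statistic intervals. Functions were tested on simulated data. Members, lists and alternatives were chosen with earlier results of these data known. Named are the members, their coding neighbours, the 5 other genes with the most peaks, the 5 windows of at least 500 kb nearest to Dlg2 in density, and listed genes with a peak; some genes that this rule names are not reported here. Python 3.11.15, pandas 2.3.3 and scipy 1.17.1 were used.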

Additional observations from a re-analysis of the deposited data

How the results depend on the processing

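Of 192 values recomputed under the alternatives, 165 stayed within 1.5 times (counts) or within the interval of the reported value. Among the 96 values for Dlg2 or for all 9 members together, 75 stayed and 21 moved. The 90 of 96 that stayed for other single members include counts of 0 that remained 0. No Dlg2 peak had a pileup of 100 or more, so leaving such peaks out could not change its number. No paired analysis was possible because each genotype had 1 library. The stricter q, 1e-05 or lower, moved the most. Peaks fell to 22 (WT) and 10 (KO) over all 9 members and to 15 and 6 at Dlg2, a KO to WT ratio of 0.4 with an interval of 0.127 to 1.09. The density of Dlg2 became 6.54 and 4.79 times the median of windows of at least 500 kb, the covered share 0.539% and 0.207%, the median spacing 145 and 154 kb and the densest bin 20.3 and 10.1 per Mb. With both lists so limited, 26.7% of WT and 66.7% of KO peaks of Dlg2 overlapped, and the gene was 2.53 times as dense as its 1 Mb flanks in WT (0.927 to 7.96) and 6.07 times in KO (0.736 to 279), intervals that include 1. The order of the libraries turned there for the total over the 9 members, the spacing, the gene to flank ratio and the densest bin. It also turned for the spacing with peaks merged within 5 kb (14.4 kb in WT and 16.04 kb in KO) and for the density over the class median with windows of at least 1 Mb (3.75 and 3.82). Fewer peaks enter at this limit, and q depends on d. A reciprocal overlap of at least 50% gave matched shares of 32.7% in WT and 33.7% in KO. Adding the d difference to the KO widths gave a KO covered share of 2.64%. Flanks of 500 kb in place of 1 Mb gave gene to flank ratios of 24.8 and 24.03. For members other than Dlg2, 6 of 96 values moved, all at the stricter q. Dlg2 had the most peaks of all coding genes under each alternative except the stricter q.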
